A study of Mus musculus with 2 samples.

Results

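The genes *Tgfb1*, *Tgfb2*, *Tgfb3*, *Tgfbr1*, *Tgfbr2*, *Bmp7*, *Gdf15*, *Inhbb*, *Smad3* and *Smad7*, which belong to the TGF-β, BMP and GDF15 signaling pathways, were examined in whole-kidney RNA. They were taken by symbol from a table of 19829 genes, and all 10 had a row. Messenger RNA came from kidneys with acute kidney injury (AKI), with 1 library per group. The number of mice per library is not stated, and the sample titles name mice in the plural. In this text the WT kidney and the TG kidney stand for the 2 libraries. The library named WT+AKI was of wild-type (WT) genotype. In that named TG+AKI a transgene (TG) raised *Inmt*, which encodes indolethylamine N-methyltransferase, in proximal tubules. The mice were of C57BL/6 background, and controls were littermates. Both groups were given voclosporin, a calcineurin inhibitor, by daily intraperitoneal injection at 30 mg/kg for 2 weeks from 8 weeks of age, although the sources differ on how long it was given. Both then underwent bilateral ischemia–reperfusion (I/R) of the kidneys for 30 min at 14 weeks of age, and the sources also differ on the time from I/R to the analysis of the kidneys. The label field for treatment states that none was given, and the title of the transgenic sample also carries the words conditional knockout. The promoter that drives the transgene is not given in the sources used here.

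TGF-β ligands bind the type II receptor TGFBR2, which recruits and activates the type I receptor TGFBR1. The receptors phosphorylate SMAD2 and SMAD3, which enter the nucleus with SMAD4 and drive genes of matrix deposition, among them those of the fibrillar collagens. SMAD7 is induced by the same signal and restrains it. BMP7 signals through SMAD1, SMAD5 and SMAD9 and is known in the kidney as a counterpart of TGF-β1 in fibrosis. GDF15 is a distant family member that is secreted by stressed cells and acts through GFRAL in the brainstem. *Inhbb* encodes the activin/inhibin βB subunit, a ligand that signals through SMAD2 and SMAD3.

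With 1 library per group no difference had a replicate check, and no test of the conditions was possible. Values are the normalized values of the table, in which 1 read was worth 0.0236 (WT+AKI) or 0.0302 (TG+AKI). Brackets hold 95% intervals from the reads, which cover counting error only and not differences between mice. PCR reads without molecular identifiers are not independent molecules, so even the counting error may be larger than these intervals show. The libraries held 38542764 (WT+AKI) and 36427421 (TG+AKI) reads. The *Inmt* value (gene ID 21743) went with the labels, at 10.4 without the transgene and 403 with it, a ratio of 38.5 [35.1 to 42.5]. This value per gene does not tell transcripts of the transgene from those of the endogenous gene. A gene was compared when its value reached 10 in at least 1 library, and it was called when the log2(value + 1) scale put the kidneys 2-fold or further apart.

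Of the 10 genes, 8 were compared, and *Tgfb2* and *Tgfb3* lay under the filter. *Inhbb*, *Gdf15*, *Tgfb1* and *Tgfbr2* were at least 2-fold lower in TG+AKI, and 0 of the 8 were at least 2-fold higher. Among all 10294 compared genes, 7.12% were called lower and 5.74% higher. The median log2 difference (TG+AKI minus WT+AKI) was -1.05 over the 8 genes and 0.014 over all compared genes. *Inhbb* and *Tgfb1* passed the filter through WT+AKI alone, where they were high, so these counts describe the compared genes and are no support for a direction. *Smad7* and *Bmp7* were the 2 compared genes with a positive difference.

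**Figure D1:**
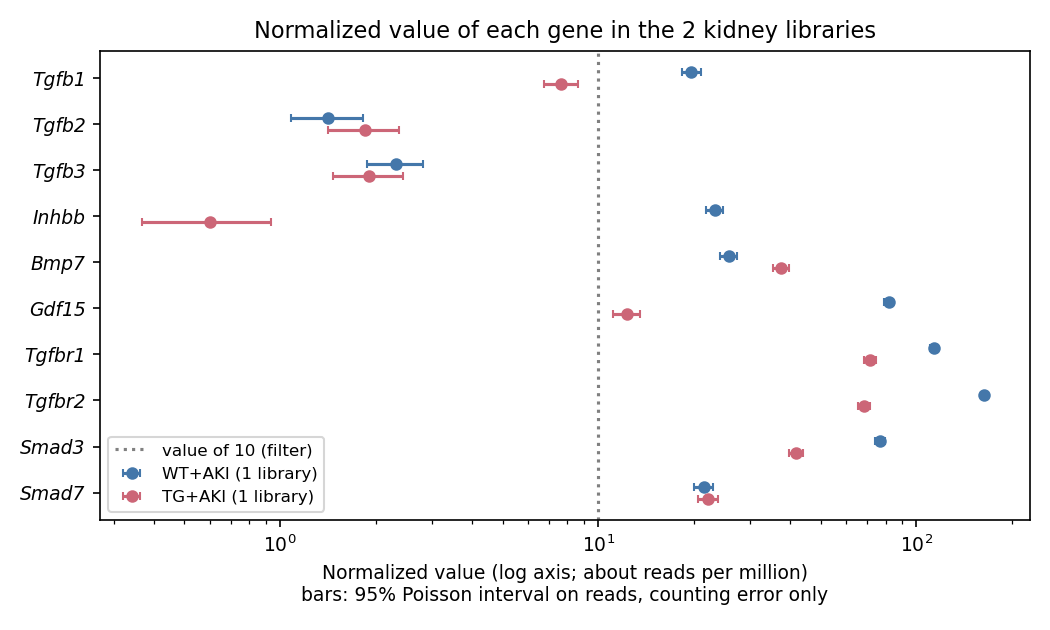
Normalized value (log axis) of each gene in WT+AKI (blue) and TG+AKI (red), 1 library each, with 95% Poisson intervals on the reads as bars and the filter value of 10 as a dotted line. *Inhbb* shows the widest gap, from 23.2 to 0.604, while *Tgfb2*, *Tgfb3* and *Smad7* have overlapping bars.

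The 250 bases upstream of the annotated start are shown for the 4 genes called lower, since these genes were lower together. They were taken from RefSeq (GRCm38.p6, the build that the labels call mm10) and run 5′ to 3′ on the gene's strand. RefSeq starts were found for 7 of the 10 genes. *Gdf15* has 2 listed starts, and the window before the outer start is given. That start lies inside the annotated span of the gene, so the window overlaps this span up to position 70632470. Capitals mark matches on either strand to the SMAD box (CAGAC, or GTCTG when read on the other strand) and to the GC box bound by Sp1 (GGGCGG, or CCGCCC).
*Inhbb*, chr1:119422249-119422498, minus strand: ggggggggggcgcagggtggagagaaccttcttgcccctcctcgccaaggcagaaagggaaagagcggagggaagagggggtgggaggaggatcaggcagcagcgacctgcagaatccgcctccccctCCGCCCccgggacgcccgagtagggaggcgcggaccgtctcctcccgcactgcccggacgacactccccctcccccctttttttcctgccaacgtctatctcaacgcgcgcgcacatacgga
*Gdf15*, chr8:70632457-70632706, minus strand: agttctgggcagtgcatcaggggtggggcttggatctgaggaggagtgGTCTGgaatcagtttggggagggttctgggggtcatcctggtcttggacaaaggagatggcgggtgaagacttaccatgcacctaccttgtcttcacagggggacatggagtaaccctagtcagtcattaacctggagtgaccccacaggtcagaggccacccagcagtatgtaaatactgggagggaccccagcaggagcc
*Tgfb1*, chr7:25686752-25687001, plus strand: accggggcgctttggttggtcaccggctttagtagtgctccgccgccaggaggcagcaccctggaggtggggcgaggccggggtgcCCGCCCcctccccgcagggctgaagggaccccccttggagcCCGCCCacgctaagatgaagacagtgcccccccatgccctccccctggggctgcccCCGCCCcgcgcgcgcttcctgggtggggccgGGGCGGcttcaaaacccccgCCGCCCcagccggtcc
*Tgfbr2*, chr9:116175364-116175613, minus strand: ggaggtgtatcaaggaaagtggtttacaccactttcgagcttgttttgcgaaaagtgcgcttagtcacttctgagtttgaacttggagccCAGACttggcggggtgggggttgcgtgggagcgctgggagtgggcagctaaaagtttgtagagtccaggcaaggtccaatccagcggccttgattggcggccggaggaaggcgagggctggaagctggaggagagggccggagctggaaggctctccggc

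The SMAD box occurred once each in the windows of *Gdf15* (start of the match at -202) and *Tgfbr2* (-160), and in 42.2% of all 32851 promoter windows of this length. The *Gdf15* window before the inner start, which is not printed, also held 1 SMAD box (-116). The GC box occurred at 5 places in the *Tgfb1* window and at 1 in that of *Inhbb*, and in 32.7% of all windows. No match was found in any of the 4 windows to the AP-1 site TGANTCA (6.75% of all windows), to the ATF4-bound CARE element TGATGNAA (3.45%) or to the TATA box TATAAA (12.4%). The windows of *Tgfb1* and *Inhbb* were rich in G and C (75.2% and 68.0%), and those of *Gdf15* and *Tgfbr2* less so (56.4% and 58.4%). The 4 windows thus shared none of the 5 motifs, and a match of letters does not show binding.

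*Tgfb1* was the TGF-β ligand with most transcript in both kidneys, and it was lower in the transgenic kidney. *Tgfb1* (gene ID 21803, chromosome 7, 25687002 to 25705077, plus strand) stood at 19.6 [18.3 to 21.0] in WT+AKI, from 832 reads. It stood at 7.64 [6.73 to 8.64] in TG+AKI, from 253 reads. The value was 2.57-fold lower in TG+AKI [2.23 to 2.97], and the log2 difference of -1.26 was number 505 from the lowest of the compared genes. With a pseudocount of 10 its log2 difference was -0.75, under the 2-fold limit. *Tgfb2* (gene ID 21808, chromosome 1, 186622787 to 186709697, minus strand), a ligand with a large part in development, had 1.42 and 1.84, from 60 and 61 reads. *Tgfb3* (gene ID 21809, chromosome 12, 86056743 to 86079041, minus strand) had 2.31 and 1.90, from 98 and 63 reads.

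For these minor ligands the ratio intervals held 1, with 1.30 [0.896 to 1.89] for *Tgfb2* and 0.823 [0.590 to 1.14] for *Tgfb3*, so that no difference was detectable at this depth. GENCODE exons of the opposite strand cover 2.14% of the *Tgfb2* exons and up to 7.60% of those of *Tgfb3*, and the sources used here do not say whether counting used the strand. Per kilobase of the longest transcript, *Tgfb1* made up 88.8% of the summed level of the 3 ligands in WT+AKI and 76.3% in TG+AKI. The share of *Tgfb2* was 3.22% and 9.25%, and that of *Tgfb3* 7.96% and 14.5%. A ratio within a library does not depend on the scaling between libraries. Relative to *Tgfb1*, the reads of *Tgfb2* were 3.34-fold more in TG+AKI than in WT+AKI [2.23 to 4.99], and those of *Tgfb3* 2.11-fold more [1.47 to 3.03]. *Tgfb3* relative to *Tgfb2* gave 0.632 [0.382 to 1.05], an interval that held 1.

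*Inhbb* showed the largest difference of the 10 genes. *Inhbb* (gene ID 16324, chromosome 1, 119415463 to 119422248, minus strand) stood at 23.2 [21.8 to 24.7] in WT+AKI, from 984 reads. In TG+AKI it stood at 0.604 [0.369 to 0.933], from 20 reads. It was 38.4-fold lower [24.7 to 63.2], with a log2 difference of -3.92 that was number 30 from the lowest of 10294. Its promoter window, printed above, held the GC box and no SMAD box. A pseudocount of 10 gave -1.65, since the value in TG+AKI was low.

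*Gdf15* followed. *Gdf15* (gene ID 23886, chromosome 8, 70629393 to 70632470, minus strand) stood at 81.9 [79.2 to 84.7] in WT+AKI, from 3473 reads. In TG+AKI it stood at 12.3 [11.1 to 13.5], from 407 reads. The value was 6.67-fold lower [6.01 to 7.40], with a log2 difference of -2.64, number 112 from the lowest. The transgenic kidney thus kept a readily counted level of *Gdf15*, in contrast to *Inhbb* with its 20 reads.

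*Bmp7* was the compared ligand with a higher value in the transgenic kidney. *Bmp7* (gene ID 12162, chromosome 2, 172868012 to 172940321, minus strand) had 25.7 [24.2 to 27.3] in the WT kidney and 37.6 [35.5 to 39.7] in the TG kidney, from 1089 and 1244 reads. The ratio was 1.46 [1.35 to 1.59], and the log2 difference of 0.53 did not reach 2-fold under any alternative. It was 0.26 once the column totals were made equal. The 2 ligands of opposing roles therefore stood in different proportions in the kidneys. *Tgfb1* had 0.764 reads for each *Bmp7* read in the WT kidney and 0.203 in the TG kidney, a ratio of ratios of 0.266 [0.225 to 0.314], or 3.76-fold lower.

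Both TGF-β receptors were lower in TG+AKI, the type II receptor more so. *Tgfbr2* (gene ID 21813, chromosome 9, 116087695 to 116175363, minus strand) had 163 [160 to 167] in the WT kidney and 68.4 [65.6 to 71.3] in the TG kidney, 2.39-fold lower [2.28 to 2.50], with a log2 difference of -1.24. *Tgfbr1* (gene ID 21812, chromosome 4, 47353222 to 47414926, plus strand) had 113 [110.0 to 116] and 71.5 [68.7 to 74.4], 1.58-fold lower [1.51 to 1.66], with a log2 difference of -0.66, short of the 2-fold limit. The reads of *Tgfbr2* exceeded those of *Tgfbr1* by a factor of 1.44 in WT+AKI, and the ratio was 0.957 in TG+AKI, a ratio of ratios of 0.663 [0.619 to 0.710].

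*Smad3*, the signal transducer, was lower, while its inhibitor *Smad7* had near-equal values. *Smad3* (gene ID 17127, chromosome 9, 63646766 to 63757994, minus strand) had 76.7 [74.1 to 79.4] in the WT kidney and 41.8 [39.6 to 44.1] in the TG kidney, 1.83-fold lower [1.72 to 1.96]. Its log2 difference of -0.86 became -1.13 with equal column totals, and -1.002 when the median ratio was set to 1, and it was then called. *Smad7* (gene ID 17131, chromosome 18, 75367365 to 75395935, plus strand) had 21.4 [20.05 to 22.9] and 22.2 [20.6 to 23.9], from 908 and 735 reads. Its ratio of 1.04 [0.939 to 1.14] held 1, and its log2 difference of 0.049 turned to -0.21 with equal column totals. It was -0.089 when the median ratio was set to 1. Relative to *Smad3*, the reads of *Smad7* were 1.90-fold more in TG+AKI than in WT+AKI [1.69 to 2.14].

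**Figure D2:**
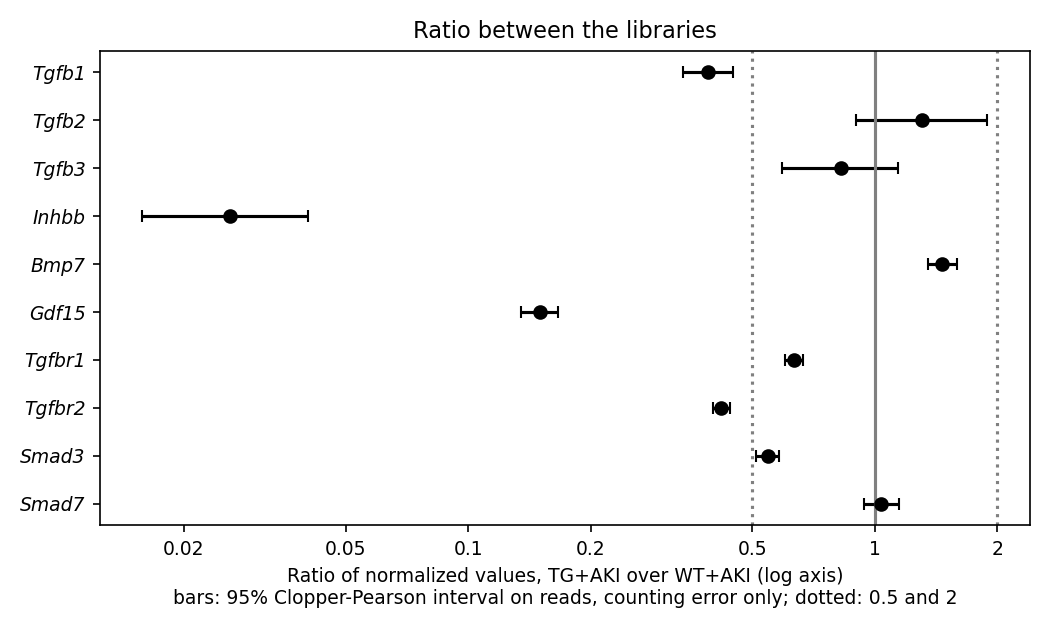
Ratio of the normalized value in TG+AKI to that in WT+AKI (log axis) for each gene, with 95% Clopper-Pearson intervals on the reads as bars, a line at 1 and dotted lines at 0.5 and 2. The intervals of *Tgfb2*, *Tgfb3* and *Smad7* cross 1, *Bmp7* lies above it at 1.46, and *Inhbb* lies lowest at 0.026.

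The order of levels differed between the kidneys. Levels of different genes were compared per kilobase (kb) of the longest annotated transcript. In WT+AKI *Gdf15* stood highest at 53.0 per kb, followed by *Tgfbr2* at 20.2, *Tgfbr1* at 19.7, *Smad3* at 15.1, *Tgfb1* at 7.63, *Bmp7* at 6.999, *Inhbb* at 5.45 and *Smad7* at 5.01. *Tgfb3* (0.683) and *Tgfb2* (0.277) came last. *Tgfbr2* and *Tgfbr1*, *Tgfb1* and *Bmp7*, and *Inhbb* and *Smad7* did not differ beyond counting error in that order. In TG+AKI *Tgfbr1* stood highest at 12.4 per kb, followed by *Bmp7* at 10.2, *Tgfbr2* at 8.46, *Smad3* at 8.21, *Gdf15* at 7.95, *Smad7* at 5.19 and *Tgfb1* at 2.97. *Tgfb3* (0.562), *Tgfb2* (0.360) and *Inhbb* (0.142) came last. *Smad3* did not differ beyond counting error from *Tgfbr2* above it or from *Gdf15* below it. By the longest transcript *Bmp7* thus took place 2 in the transgenic kidney and place 6 in the wild-type kidney, and *Inhbb* moved from place 7 to place 10. These places depend on the transcript length used. The longest *Tgfb1* transcript is a retained intron of 2573 bases, and its longest coding transcript of 2175 bases gave 9.02 and 3.51 per kb with the same places in both orders.

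**Figure D3:**
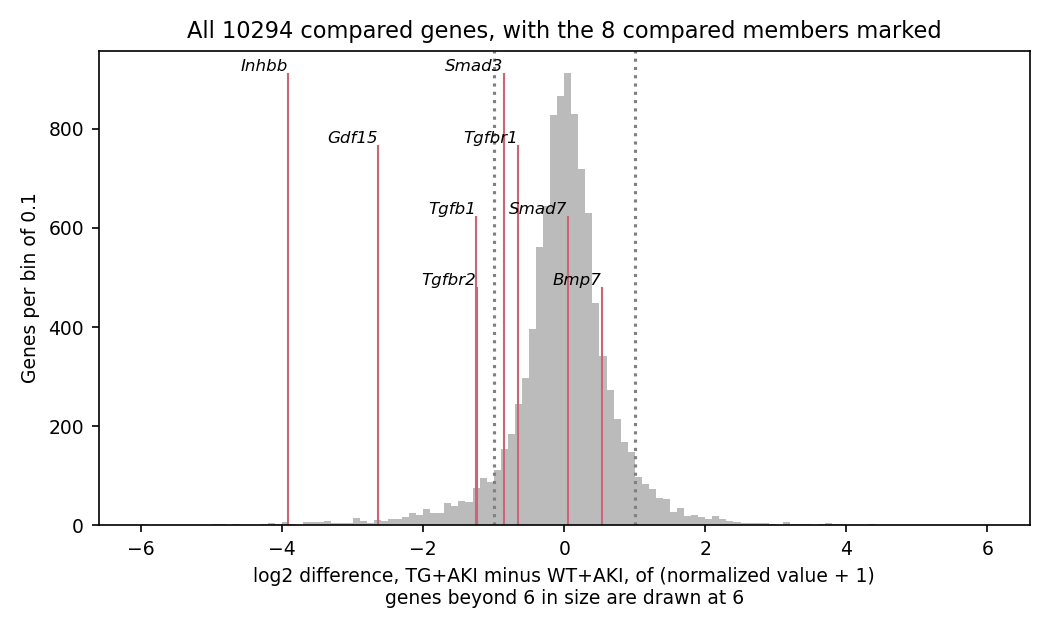
Histogram of the log2 difference (TG+AKI minus WT+AKI, values + 1) of all 10294 compared genes in bins of 0.1, with the 8 compared members as red lines and the 2-fold limits dotted. *Inhbb* and *Gdf15* lie far in the lower tail, *Tgfb1* and *Tgfbr2* almost coincide near -1.25, and *Smad7* lies near the center.

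The other genes of these pathways were counted over 9 lists of 119 symbols without the 10 genes, of which 104 were listed and 66 compared. At least 2-fold lower in TG+AKI were 22 of the 66 (33.3%), and 0 were at least 2-fold higher, against 7.12% and 5.74% of all compared genes. The median log2 difference of the 66 genes was -0.45. Of the 22 genes, 7 passed the filter through WT+AKI alone. These 7 had to be lower in TG+AKI, though not by 2-fold, so the counts are a description. With a pseudocount of 10 the count was 18, and *Smad1* (-0.87), *Lrrc32* (-0.89), *Pmepa1* (-0.86) and *Fst* (-0.79) were then under the 2-fold limit.

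Of the 12 compared TGF-β target genes, 9 (75%) were at least 2-fold lower, against 7.12% of all compared genes. Of these 9, 3 had passed the filter through WT+AKI alone, and the median log2 difference of the 12 genes was -1.61. *Timp1*, an inhibitor of metalloproteinases, had 18.9 in the WT kidney and 0.664 in the TG kidney (log2 difference -3.58), and *Tgfbi*, a matrix protein named after its induction by TGF-β, 44.9 and 8.24 (-2.31). *Col1a1* had 47.8 and 11.1 (-2.01), and the AP-1 subunit *Junb* 68.0 and 16.5 (-1.98). The smooth muscle actin gene *Acta2*, a myofibroblast marker, had 29.98 and 29.6, a ratio of 0.986 [0.906 to 1.07]. The matrix and injury genes of this list also respond to other signals.

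None of the 4 compared BMP target genes was called, against 7.12% of all compared genes called lower and 5.74% called higher. The median log2 difference of the 4 genes was 0.37. The difference was positive in 3 of the 4, against 51.2% of all compared genes, and no test set them against the TGF-β targets. The *Id* genes encode inhibitors of DNA binding that BMP signals induce. *Id4* had 28.1 in the WT kidney and 46.9 in the TG kidney (ratio 1.67 [1.54 to 1.80]), *Id3* had 51.2 and 67.3 (1.32 [1.24 to 1.40]) and *Id2* had 288 and 366 (1.27 [1.24 to 1.30]). *Id1* was slightly lower, at 29.8 and 27.3 (0.916 [0.840 to 0.998]). With equal column totals the median was 0.095, and 3 of the 4 genes were still positive.

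Among the SMADs, *Smad1*, a BMP transducer, was called lower at 24.9 and 9.06 (log2 difference -1.36). It passed the filter through WT+AKI alone. *Smad2* had 47.2 and 38.8 (-0.28). *Smad4* (0.007) and *Smad5* (0.062) had small positive differences, which were negative with equal column totals (-0.26 and -0.21) and when the median ratio was set to 1 (-0.14 and -0.080). *Smad1* was thus lower while the other BMP transducer compared, *Smad5*, was near-equal.

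Of the other ligands 3 of 16 listed genes were compared, and none was called. Among all compared genes 7.12% were called lower and 5.74% higher. *Gdf11* had 16.7 in the WT kidney and 10.03 in the TG kidney (-0.69), *Bmp4* 35.3 and 22.9 (-0.60), and *Bmp6*, an inducer of hepcidin, 87.1 and 63.9 (-0.44). The receptor list also held no call among 10 compared genes, and its median was -0.26. Its largest differences were those of *Acvr1* (-0.44), *Eng* (-0.39), *Rgmb* (-0.37), *Tgfbr3* (-0.31) and *Bmpr1a* (-0.28). *Tgfbr2* at -1.24 and *Tgfbr1* at -0.66 both lay outside the range of these receptors, which ran from -0.44 to 0.014.

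Genes of latency and activation had 3 of 11 compared genes (27.3%) called lower, against 7.12% of all compared genes, and a median of -0.088. *Thbs1*, which encodes the TGF-β activator thrombospondin-1, had 144 and 58.6 (-1.28), *Lrrc32*, the anchor of latent TGF-β on cells, 37.9 and 15.8 (-1.21), and the integrin subunit *Itgav* 283 and 134 (-1.08). The fibrillin gene *Fbn1* had 43.8 and 21.6 (-0.98). The integrin subunit *Itgb8* had a positive difference of 0.81, with 37.2 and 65.9. The activators of this list therefore did not move in 1 direction.

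Inhibitors of the pathway were mixed as well. Inside the cell, *Tgif1*, a corepressor, had 44.9 and 11.5 (-1.88), and *Pmepa1*, a feedback inhibitor of SMAD signaling, 46.8 and 21.4 (-1.10). They were the 2 called genes among 8 compared (25%), against 7.12% of all compared genes called lower. *Smurf1* (-0.80), *Skil* (-0.50) and *Smurf2* (0.25) were not called. Outside the cell, 3 of 7 compared antagonists (42.9%) were called lower, against 7.12% of all compared genes. Of these 3, *Nbl1* and *Fst* passed the filter through WT+AKI alone and so had to be lower in TG+AKI, though not by 2-fold. The 3 were *Nbl1*, a BMP antagonist, with 29.2 and 4.59 (-2.43), the activin-binding *Fst* with 15.1 and 4.56 (-1.53), and *Dcn*, the proteoglycan decorin, with 120.4 and 55.2 (-1.11). The BMP regulators *Kcp* (0.89) and *Sostdc1* (0.75) had positive differences.

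Stress genes known to be induced along with *Gdf15* had 4 of 7 compared genes (57.1%) called lower, against 7.12% of all compared genes. Their median was -1.28, and *Atf3* passed the filter through WT+AKI alone. *Cdkn1a*, the p53 target p21, had 581 in the WT kidney and 31.2 in the TG kidney (-4.18), *Atf3* 27.2 and 1.81 (-3.33), *Mdm2* 240 and 62.9 (-1.91) and *Trp53* 51.0 and 20.4 (-1.28). *Sesn2* had 67.5 and 34.5 (-0.95). *Atf4* itself had 110.5 and 80.4, a ratio of 0.728 [0.694 to 0.763].

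**Figure D4:**
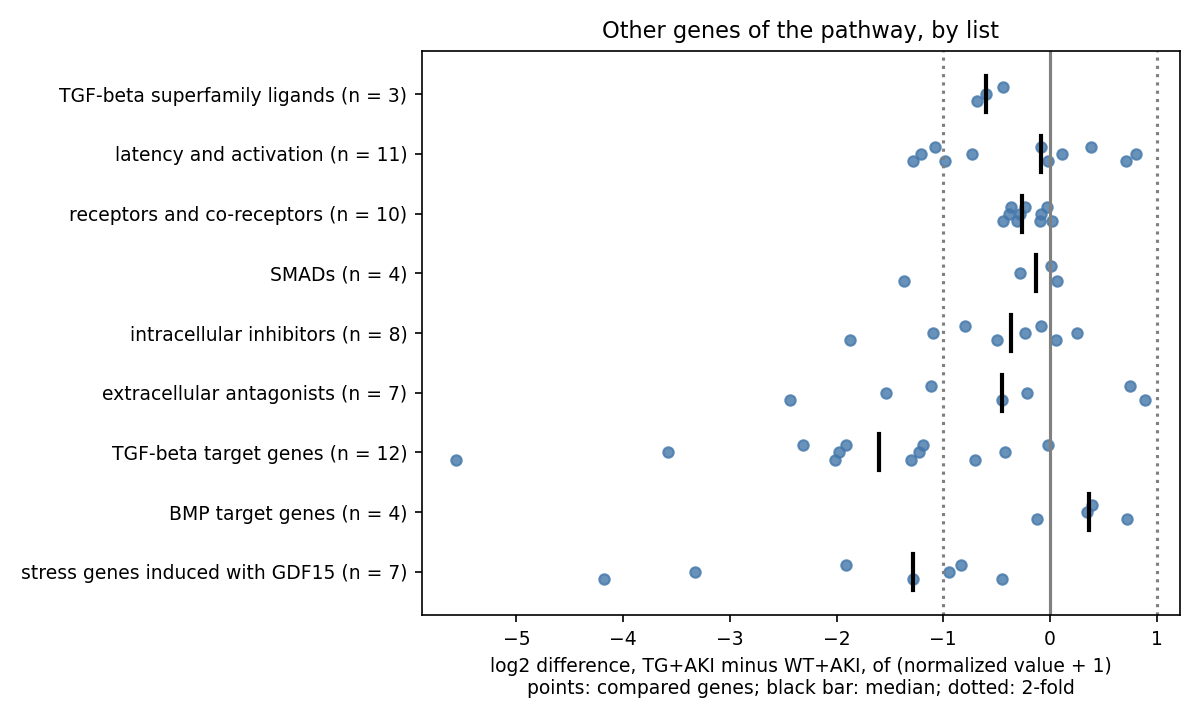
Log2 difference (TG+AKI minus WT+AKI, values + 1) of each compared gene in 9 lists of related genes, with the list median as a black bar and the 2-fold limits dotted. The medians of the TGF-β target genes (-1.61) and of the stress genes (-1.28) lie beyond the 2-fold limit, and that of the BMP target genes lies at 0.37.

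Markers of several kidney cell types moved with these genes, and their part in the differences was not tested. In bulk RNA, fewer cells of a type and less RNA per cell cannot be told apart. The marker calls below stand against 7.12% called lower and 5.74% called higher among all compared genes. The tissue was kidney by its markers, since all 8 proximal tubule markers were listed and compared, with a summed level of 2773 in the WT kidney and 12653 in the TG kidney, and all were called higher. All 6 injured proximal tubule markers (*Havcr1*, *Lcn2*, *Krt20*, *Vcam1*, *Sox9* and *Krt8*) were called lower, with sums of 2182 and 111, and 4 of them passed the filter through WT+AKI alone, beside the low *Inhbb* and *Gdf15* of TG+AKI. The 6 macrophage markers summed to 152 and 64.3, beside *Tgfb1*. The 5 called lower all passed the filter through WT+AKI alone, which fixed their direction but not a 2-fold difference. *Csf1r*, which passed the filter in both libraries, had a ratio of 1.15 [1.07 to 1.23]. The 7 fibroblast and mural markers summed to 494 and 304, with *Col1a1* and *Dcn* called, beside the receptors and the matrix targets. *Pdgfra* (ratio 0.603) and *Pdgfrb* (0.536) were lower and not called. The intervals of *Acta2* (0.986 [0.906 to 1.07]) and *Rgs5* (0.977 [0.921 to 1.04]) held 1, and *Myh11* was higher (1.27 [1.16 to 1.39]). *Col1a1* and *Dcn* are also members of the pathway lists, as is *Acta2*. The 6 endothelial markers (410 and 424) and the 6 podocyte markers (436 and 465) held no call. Of the 5 thick ascending limb markers 4 were compared and 3 were called higher, with sums of 1949 and 4273, and 2 of the 7 compared distal tubule and collecting duct markers were called higher (469 and 1059), beside *Bmp7*. The 7 listed neutrophil and lymphocyte markers stayed under the filter, with sums of 5.24 and 2.93. Every gene in the table had at least 1 read in both libraries, so no listed marker could stand at 0. The neutrophil marker *Ly6g* had no row.

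The scaling between the libraries bore on all of these values. With equal column totals the median of all compared genes was lower by 0.28, the calls were 359 higher and 1141 lower, and 23.9% of the called genes were higher, against 44.6% with the deposited scaling. With a median ratio of 1 the shift was 0.15 and the share was 33.4%. Of the 10 genes, *Smad7* changed direction under these scalings. *Inhbb*, *Gdf15*, *Tgfb1* and *Tgfbr2* were called lower under every scaling tried.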

How the data were processed

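Whole-kidney messenger RNA was sequenced, 1 library per group, and groups were taken from the library names in the labels. How many mice each library held is not stated. A stranded TruSeq kit was used per the labels, and the submitters' processing notes name STAR 2.7.3a, HTSeq, DESeq2, edgeR, Cufflinks 2.2.1 and mm10. The deposited table holds a normalized signal per gene, which, by its values, the authors made by dividing read counts by 1 factor per library. All values (100%, tolerance 1e-06 reads) were whole multiples of the smallest value of their column (0.0236 and 0.0302), so reads were recovered. The filter of 10 amounts to 424 WT+AKI and 331 TG+AKI reads. TMM factors from edgeR 4.0.16 (1.10 and 0.909) on these reads gave the deposited scaling.

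Differences were taken on the log2(value + 1) scale. Ratio intervals were Clopper-Pearson, level intervals Poisson, and ratios of ratios used the conditional odds ratio (95%, Python 3.11.15, scipy 1.17.1). The fold rule and the ratio intervals were tried on simulated Poisson reads, which carry counting error only. An exact binomial test with Benjamini-Hochberg adjustment compared the 2 libraries, not the conditions, and passed 8291 of 10294 genes, too many to sort genes by. Transcript lengths came from GENCODE M21, positions and promoter windows from RefSeq GRCm38.p6, in which 19780 of 19829 gene IDs were found. The members and lists were chosen with earlier results of these data known. The text names all members, in each pathway list the 5 largest absolute differences among the compared genes, some of the listed marker genes and *Inmt*. The other markers enter only through the sums and counts of their lists. A gene that this rule names among the TGF-β targets is not reported here. *Acta2* and *Atf4* were named outside this rule after values were seen, as were the genes below the filter in the closing section.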

Additional observations from a re-analysis of the deposited data

How the results depend on the processing

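Each group had 1 library, so no library could be left out. No paired analysis was possible because the groups share 1 replicate number only. The number of genes called depended on the settings. With a pseudocount of 10, 408 genes were lower and 372 higher; with equal column totals 1141 were lower and 359 higher; without a filter 1150 were lower; and with a filter of 50, 295 were lower and 374 higher. The calls of the 10 genes held under pseudocount 0.1, DESeq2 size factors, TMM, no filter and the added exact binomial test. With a filter of 50 only 4 of the 10 genes were compared and 2, *Gdf15* and *Tgfbr2*, were lower, and 12 pathway genes were lower, against 22, since fewer genes were compared. Without a filter 1 pathway gene, *Smad9*, was called higher. *Smad7* reversed to -0.21 under equal column totals, and it was -0.089 when the median ratio was set to 1, which follows from the shift of all genes. The median of the SMAD list reversed to 0.035 without a filter, when it held 6 genes in place of 4, and with a filter of 50, when it held 2. Per kb of the median transcript length *Smad3* stood highest in both libraries (164.6 and 89.7 per kb), because short transcripts enter. By that length *Bmp7* took place 7 in WT+AKI and place 4 in TG+AKI, and *Gdf15* took place 3 in WT+AKI. *Tgfb2* then stood above *Tgfb3* in both libraries. The per-kb level over the longest coding transcript was added after the data were seen. Depth limits *Tgfb2* and *Tgfb3*, with 60 to 98 reads, and the size of the *Inhbb* difference, with 20 reads.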

Other observations

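Several relatives of the genes described lay under the filter, and they were chosen after their values were seen. *Inhba*, the activin βA subunit, had 2.24 from 95 reads in the WT kidney and 0.362 from 12 reads in the TG kidney, 6.18-fold lower [3.38 to 12.4], in the same direction as *Inhbb*. *Inha*, the inhibin α subunit, had 2.62 and 2.51, a ratio of 0.957 [0.711 to 1.28]. *Gdf9* had 40 and 6 reads, a ratio of 0.192 [0.0665 to 0.456].

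In the lists of SMADs and BMP target genes, the 4 genes under the filter had ratios above 1. *Smad9*, a BMP transducer, had 1.49 and 4.56, a ratio of 3.07 [2.27 to 4.19]. *Atoh8* had 1.53 and 3.23, a ratio of 2.11 [1.53 to 2.91], and *Hey1* 0.401 and 1.60, a ratio of 3.99 [2.27 to 7.35]. *Smad6*, an inhibitor of BMP signaling that BMPs induce, had 5.61 and 8.12, a ratio of 1.45 [1.21 to 1.73]. Of the BMP ligands under the filter, *Bmp3* had 144 and 67 reads, a ratio of 0.596 [0.439 to 0.801], while the intervals of *Bmp8a* (0.665 [0.401 to 1.08]), *Bmp2* (1.09 [0.762 to 1.55]) and *Bmp5* (1.28 [0.566 to 2.90]) held 1.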
